A study of Mus musculus with 70 samples.

Results

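The genes of extracellular adenosine and purine handling described here are Entpd1, Nt5e, Adora2a, Ada, P2rx7 and P2rx4. They were chosen by name, with earlier results of these data known, and make up 6 of the 53465 gene IDs in the deposited table. All 6 passed the filter on low counts and were among the 13173 protein-coding genes tested. RNA was measured in regulatory T cells (Tregs) of 5 male Foxp3-YFP-cre mice aged 16.6 to 18.6 weeks. The mice were otherwise untreated, and every group comes from the same animals, in which YFP and Cre are made from the Foxp3 locus. ST2 is the receptor for interleukin-33 and is encoded by Il1rl1. ST2+ CD44hi and ST2- CD44hi Tregs were sorted from blood, spleen, lungs, visceral adipose tissue (VAT), colon and back skin. ST2- Tregs that were CD44lo were sorted from spleen and lungs as well, which gives 14 groups of 5 libraries and 70 libraries in all. The values below come from the 67 libraries with over 1000000 counts, which leaves 4 blood ST2+ libraries, 3 colon ST2+ libraries and 5 in every other group.

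ATP that leaves stressed or dying cells is a danger signal, and T cells read it through ligand-gated P2X channels. CD39, the product of Entpd1, removes phosphates from ATP and ADP to leave AMP. CD73, the product of Nt5e, converts AMP into adenosine, and Tregs are well known for carrying both enzymes on their surface. Adenosine acts through the receptor encoded by Adora2a, which raises cAMP and restrains T cell activation, and adenosine deaminase (Ada) removes it by making inosine. P2X7 (P2rx7) needs high ATP to open and can lead to shedding of surface proteins and death of T cells, and on mouse T cells it can also be gated through ADP-ribosylation by ART2.2 (Art2b). P2X4 (P2rx4) is a related channel that opens at lower ATP.

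Depth ran from 1304560 to 2759926 counts per kept library (median 2039002). Most groups came from 220 sorted cells, with fewer in VAT ST2- (93 to 220), blood ST2+ (55 to 220) and blood ST2- (166 to 220). In CPM, the counts per 1000000 of a library's total scaled with TMM factors, Il1rl1 was at 230.0 to 1614 in the 27 ST2+ libraries and at 0 to 195 in the 30 ST2- CD44hi libraries. Cd44 was at 38.5 to 79.8 CPM in the 10 CD44lo libraries. The 6 Treg markers had counts in all 67 libraries, with Foxp3 at 105 to 414 CPM. Transcripts of other cell types were also counted. The summed level of 8 myeloid markers was 918 to 1077 CPM in the 3 colon ST2+ libraries and 0 to 219.5 CPM in all others. The 4 fibroblast markers summed to 254 to 759 CPM in colon ST2+ and 0 to 572 CPM elsewhere. The 5 epithelial markers summed to 199 to 1012 CPM in colon ST2+, which had the highest group median (436 CPM). The sums elsewhere were up to 1124 CPM for the 5 epithelial markers (skin ST2-) and 158 CPM for the 2 lung epithelial markers (lungs). They were up to 264 CPM for the 3 adipocyte markers and, in blood ST2- Tregs, 566 CPM for the 5 markers of red cells and platelets. The group medians of the red cell and platelet sum were highest in blood, at 464 CPM in ST2+ and 81.9 CPM in ST2- Tregs. The 4 markers of CD8 and NK cells summed to 3.89 to 156 CPM. The 3 endothelial markers summed to 21.1 to 398 CPM, where Pecam1, which T cells also express, had counts in all 67 libraries while Cdh5 was at 0 in 52 and Kdr at 0 in 54. Because these are bulk samples, fewer cells that express a gene and less RNA of it per cell cannot be told apart. Tissues were also prepared differently. Lungs, VAT and colon were digested with enzymes and skin was digested for longer, while no digestion is described for blood and spleen. CD4 cells were enriched in spleen and lungs alone. Tissue and preparation therefore cannot be told apart, also in the contrasts against spleen.

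Compared per kb of exon, Nt5e was the most abundant of the 6 genes. Its mean over the 14 groups was 48.1 CPM per kb, and group means ran from 17.9 in VAT ST2+ to 77.2 in colon ST2- Tregs. The other 5 genes had means of 10.3 to 16.9 CPM per kb. Entpd1 was at 16.9, P2rx4 at 14.3, P2rx7 at 14.1, Ada at 13.6 and Adora2a at 10.3 CPM per kb. The genes differed more in how far their group means were apart. The highest group mean of P2rx4 was 2.23 times the lowest, the narrowest span, while the spans were 3.55 for Entpd1, 4.31 for Nt5e, 4.43 for Ada and 11.6 for Adora2a. The span of P2rx7 was far wider because skin held almost none of it.

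**Figure D1:**
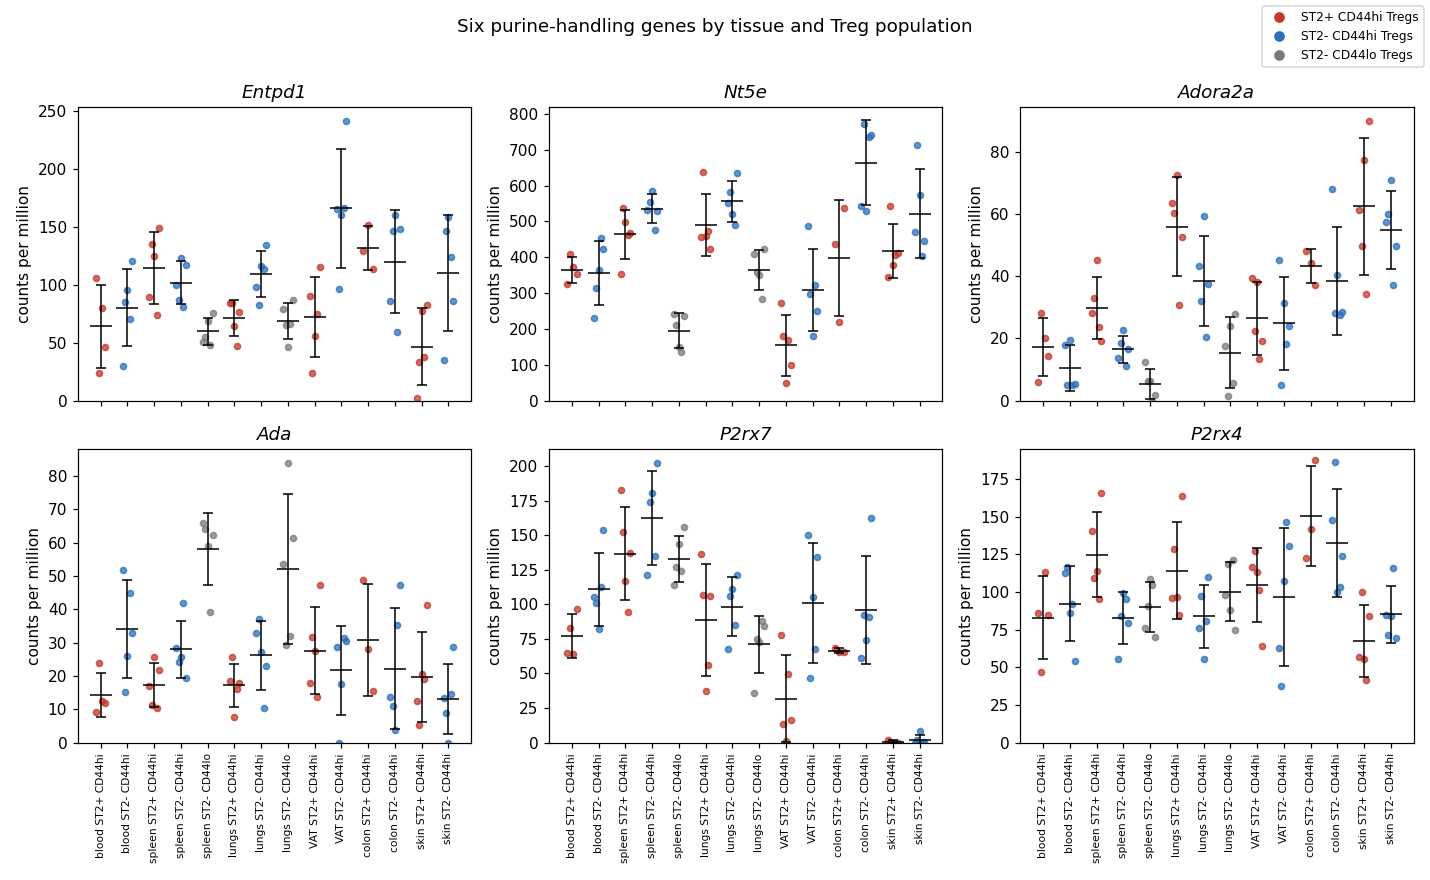
TMM-scaled CPM of each gene (y axis, linear, starting at 0 in each panel) in the 14 groups (x axis). Each point is 1 library, the horizontal line is the group mean and the bars are 1 SD. P2rx7 lies between 0 and 8.29 CPM in the 10 skin libraries, and Ada has its highest group means in the CD44lo Tregs.

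The 14 groups of each gene were put in order of mean level, which by itself places groups of similar level side by side. Of the 78 neighbouring pairs over the 6 genes, 76 differed in mean log2 CPM by less than the larger of their 2 SDs. This describes the order only, and no share over all genes is set beside it. The exceptions were the step of 0.62 on the log2 scale between VAT ST2- and the next group in Nt5e, spleen CD44lo, and the step of 3.15 between VAT ST2+ and the skin in P2rx7. Entpd1 was highest in VAT ST2- Tregs (166 ± 51.6 CPM, SD, n = 5), a group that ranked 12 of 14 for Nt5e (308 ± 114 CPM, SD, n = 5). Over the 14 group means of log2 CPM, Pearson's r of Entpd1 and Nt5e was 0.28. Adora2a and Ada had the most negative r among the 15 pairs of genes, at -0.70, and without skin it was -0.65 over 12 groups. These values describe groups that share animals and, in part, tissues.

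The enzymes that make adenosine were compared first between ST2+ and ST2- CD44hi Tregs. In VAT, the ST2+ libraries of Nt5e were at 273, 179, 49.6, 168 and 99.1 CPM in mice 1 to 5, and the ST2- libraries of the same mice were at 488, 296, 181, 323 and 251 CPM. ST2+ was lower in 5 of 5 mice, although the ranges of the groups overlapped. Nt5e fell by 0.998 on the log2 scale (SE 0.24, adjusted p 0.00657, edgeR). A gene was called a DEG when it changed 1.5-fold or more with p no higher than 0.05 after Benjamini-Hochberg adjustment over the 13173 genes. In VAT, 2 of the 6 genes were DEGs, Nt5e and P2rx7, where 3.12% of all tested genes were. The Nt5e difference was not a DEG without mouse 5 (adjusted p 0.0647) or when VAT alone was fitted (log2 fold change -0.99, adjusted p 0.340), nor with limma voom (adjusted p 0.0679).

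Outside VAT, none of the 6 genes was a DEG between ST2+ and ST2- CD44hi Tregs. The share of all genes called was 4.04% in blood, 0.319% in spleen, 0.782% in lungs, 0.0683% in colon and 0.213% in skin. None was called there by DESeq2 or voom either. Unadjusted, p was below 0.05 for Entpd1 in skin (0.00352), Nt5e in colon (0.00995) and P2rx4 in spleen (0.0244). Nt5e was lower in the ST2+ library in 23 of 27 pairs of the same tissue and mouse. These pairs come from 5 mice and are not independent, and blood had 2 pairs in each direction. Averaged over the 6 tissues, the log2 fold change of Nt5e was -0.40 (SE 0.10, adjusted p 0.00436), which passed the test but not the 1.5-fold minimum. In the average, 1 of the 6 genes was a DEG, P2rx7, where 4.21% of all genes were.

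Entpd1 was also lower in ST2+ libraries of VAT, at 90.4, 24.1, 56.1, 74.4 and 116 CPM against 166, 96.1, 159.9, 166 and 242 CPM in mice 1 to 5. All 5 mice had less in the ST2+ library. The log2 fold change of -1.20 (SE 0.40) did not pass (adjusted p 0.0727), although it did with DESeq2 (adjusted p 0.0445), with voom (0.0228), with sorted cell number as a covariate (log2 fold change -1.69, adjusted p 0.0156) and without mouse 1 (0.0228). In skin the libraries were at 2.56, 33.8, 77.4, 37.6 and 82.5 CPM in ST2+ and at 35.0, 146, 158, 124 and 86.2 CPM in ST2- Tregs. The skin difference had a log2 fold change of -1.23 (SE 0.41, adjusted p 0.275). In spleen and colon the log2 fold changes were 0.17 (SE 0.39) and 0.13 (SE 0.45), with adjusted p values of 1 in each. Averaged over the tissues, Entpd1 had a log2 fold change of -0.51 (SE 0.17, adjusted p 0.0458), below the fold minimum, and without skin it was -0.37 (adjusted p 0.279).

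For the ATP channel P2rx7, ST2+ libraries of VAT were at 77.8, 13.2, 1.38, 49.6 and 16.0 CPM in mice 1 to 5. The ST2- libraries were at 151, 47.1, 105, 67.7 and 134 CPM. ST2+ was lower in all 5 mice by very different amounts, and the library of mouse 3 held 3 counts. P2rx7 fell by 1.66 on the log2 scale, or 3.16-fold (SE 0.44, adjusted p 0.0186, edgeR). The call was lost without mouse 2 (adjusted p 0.0998), mouse 3 (log2 fold change -1.34, adjusted p 0.0677) or mouse 5 (adjusted p 0.169), and in a fit of VAT alone (adjusted p 0.382). Averaged over the tissues P2rx7 fell by 0.77 on the log2 scale (SE 0.24, adjusted p 0.0306). In 21 of 27 pairs the ST2+ library was lower or, in skin of mouse 4, both libraries were at 0. Without mouse 3 the averaged log2 fold change was -0.36 (adjusted p 0.655), and without mouse 2, 4 or 5 it was not a DEG either (adjusted p 0.0953, 0.0833 and 0.182). Without skin, where little was counted, it was -0.62 (adjusted p 0.0403).

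Adora2a, Ada and P2rx4 were not DEGs between ST2+ and ST2- CD44hi Tregs in any tissue. Adora2a was higher in the ST2+ library in 21 of 27 pairs, with an averaged log2 fold change of 0.42 (SE 0.21, adjusted p 0.304). In spleen its ST2+ libraries were at 28.0, 32.9, 45.3, 23.8 and 19.1 CPM and its ST2- libraries at 13.8, 18.4, 22.6, 11.2 and 16.5 CPM, so that each mouse had more in ST2+ but the ranges overlapped. P2rx4 was higher in the ST2+ library in 18 of 27 pairs, with an averaged log2 fold change of 0.14 (SE 0.11, adjusted p 0.615), with a 95% interval of -0.07 to 0.36. Ada had no direction over the tissues. Its log2 fold changes ran from -1.25 (SE 0.64, adjusted p 0.277) in blood to 0.59 (SE 0.60, adjusted p 0.925) in skin. The effect of ST2 was not shown to differ between tissues for any of the 6 genes, since the interaction of tissue and ST2 called 0 of them (lowest adjusted p 0.339, Nt5e, edgeR) where 1.43% of all genes were called. The same test in voom called 1, Entpd1 (adjusted p 0.0341), while it called 873 of all genes, beside 189 in edgeR. DESeq2 called 0 of the 6 genes. Unadjusted, 1753 of all tested genes had an interaction p below 0.05.

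**Figure D2:**
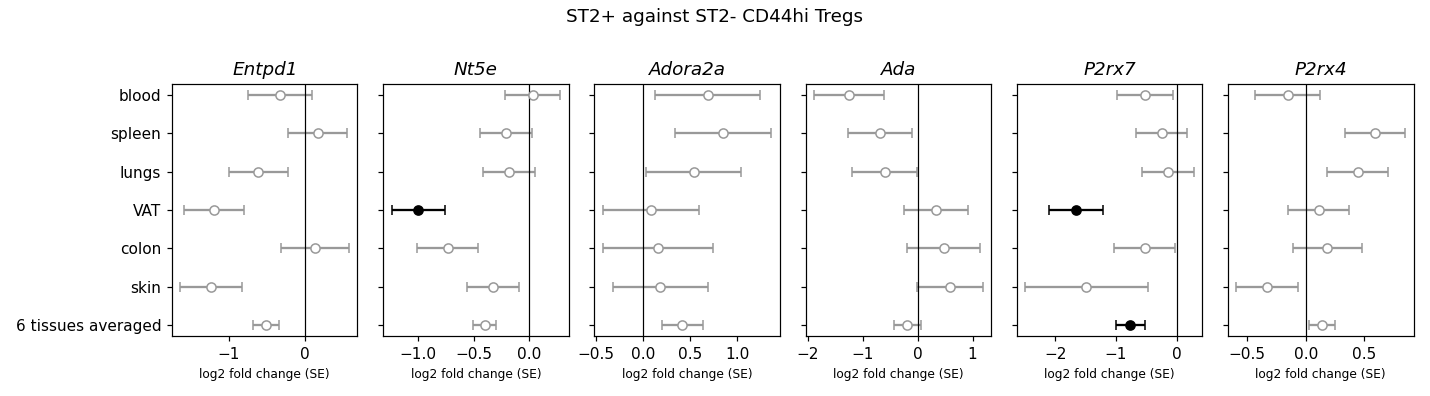
Log2 fold change of ST2+ against ST2- CD44hi Tregs (x axis, own scale in each panel) by tissue and averaged over 6 tissues (y axis), with bars of 1 SE. Filled points are DEGs: Nt5e and P2rx7 in VAT, and P2rx7 in the average.

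CD44hi Tregs of the 6 tissues were then compared with each other. Over the 6 tissues, 5 of the 6 genes differed (edgeR test of any difference, mean of ST2+ and ST2-), where 67.2% of all genes did, so the count is close to the share among all genes. The adjusted p was 1.75e-17 for P2rx7, 1.56e-08 for Nt5e, 2.37e-05 for Adora2a, 0.00287 for P2rx4 and 0.0487 for Entpd1. Ada, at 0.732, did not pass. The call of Entpd1 was lost without mouse 1, 3, 4 or 5 (adjusted p 0.0998 to 0.167), with all 70 libraries (0.0898), in a fit of CD44hi groups only (0.0885), with a stricter filter on low counts (0.0511) and with all gene types (0.0554). In ST2- Tregs alone, which leave out the colon ST2+ libraries, 3 genes differed, Nt5e, Adora2a and P2rx7, where 43.5% of all genes did. In ST2+ Tregs alone the same 5 genes passed as over both populations, where 47.6% of all genes did.

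P2rx7 was close to absent from skin Tregs. The ST2+ libraries of skin held 5, 1, 0, 0 and 0 counts in mice 1 to 5 and the ST2- libraries held 0, 3, 13, 0 and 1. Thus 5 of 10 skin libraries were at 0, and the highest stood at 8.29 CPM. Outside skin the lowest of the 57 libraries was the VAT ST2+ library of mouse 3 at 1.38 CPM, and all others were above the range of skin. Pooled over its 10 libraries, skin held 23 of 18432288 counts, or 1.25 CPM, with a 95% exact binomial interval of 0.791 to 1.87 that covers counting error only. The pooled level was 159.5 CPM in spleen, 98.2 in blood, 94.4 in lungs, 82.7 in colon and 71.9 in VAT, which is 57.7 to 128 times that of skin. Against spleen the fitted log2 fold change in skin was -6.89 (SE 0.46, adjusted p 1.13e-19). The call was made in ST2- (-6.27, SE 0.61) and in ST2+ Tregs (-7.50, SE 0.69) taken alone.

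P2rx7 lies on chromosome 5 of GRCm38 at chr5:122643911-122691432 on the plus strand, and P2rx4 lies downstream on the same strand at chr5:122707544-122729738. The genes are 16111 bases apart, with 1 annotated gene between them. P2rx4 was counted in every skin library, at 56.7, 99.98, 55.1, 41.7 and 84.2 CPM in ST2+ and at 84.6, 71.5, 84.2, 116 and 69.2 CPM in ST2- Tregs of mice 1 to 5. No skin library of P2rx4 was near 0, and the log2 fold change of P2rx4 in skin against spleen was -0.42 (SE 0.18, adjusted p 0.0499), below the fold minimum. In ST2+ Tregs alone P2rx4 fell by 0.88 in skin (SE 0.26, adjusted p 0.00659), and in ST2- Tregs alone its log2 fold change was 0.04 (SE 0.26, adjusted p 0.923). RefSeq lists 2 starts for P2rx7, the second of them inside the gene, and 1 for P2rx4. The 250 bases before each start are shown because these nearby genes had such different levels in skin (RefSeq, GRCm38.p6, plus strand). The counts are per gene, so use of one start or the other was not measured. Capitals mark matches on either strand to 6 motifs, spelled out after the sequences.
P2rx7 at the outer start, chr5:122643677-122643926: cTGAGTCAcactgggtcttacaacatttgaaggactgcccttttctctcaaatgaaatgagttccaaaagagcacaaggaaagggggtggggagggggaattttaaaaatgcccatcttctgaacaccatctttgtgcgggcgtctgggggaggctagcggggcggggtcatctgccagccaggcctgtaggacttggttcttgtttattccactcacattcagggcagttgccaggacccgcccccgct
P2rx7 at the inner start, chr5:122650133-122650382: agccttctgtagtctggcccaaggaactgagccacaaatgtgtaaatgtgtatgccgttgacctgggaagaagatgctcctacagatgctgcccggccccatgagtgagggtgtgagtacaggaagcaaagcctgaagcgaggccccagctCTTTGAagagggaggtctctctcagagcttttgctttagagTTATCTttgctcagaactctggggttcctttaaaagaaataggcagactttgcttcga
P2rx4, chr5:122707294-122707543: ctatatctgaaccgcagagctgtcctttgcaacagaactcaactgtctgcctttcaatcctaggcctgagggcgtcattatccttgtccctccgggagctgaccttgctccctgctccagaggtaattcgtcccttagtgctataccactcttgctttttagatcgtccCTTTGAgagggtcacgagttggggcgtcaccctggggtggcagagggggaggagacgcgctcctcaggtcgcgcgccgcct
The outer P2rx7 window holds 1 AP-1 match, from -249 to -243 relative to the start. The inner one holds a TCF match from -99 to -94 and a GATA match from -58 to -53, and the P2rx4 window holds a TCF match from -81 to -76. None of these matches overlap. Such letters are common among the 32851 RefSeq windows of the same length. The AP-1 motif was searched as TGANTCA and is held by 6.75% of all windows. The TCF motif was searched as CTTTGA and is held by 13.8% of them. For GATA the letters were AGATAA and the share of windows is 9.99%. The Runx motif was spelled TGTGGT and is in 14% of windows, while the forkhead motif was spelled TGTTTAC and is in 3.17%. The cAMP response element was searched as TGACGTCA, and 1.55% of windows hold it. A match is a description of letters and not a measured site. In the GENCODE annotation the last 16 bases of the outer P2rx7 window are exonic, and the inner window has no exonic base. Exons of P2rx7 share 119 bases with the miRNA gene Mir8115, so reads there cannot be told apart. RefSeq windows were also given for Entpd1, Nt5e and Ada, and none of their windows held a match to the 6 motifs. Adora2a had no entry in the table used.

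P2rx7 was lower than in spleen in VAT and colon too. The mean was 66.3 ± 51.2 CPM in VAT and 149.6 ± 34.6 CPM in spleen (SD, n = 10 each), and the log2 fold change was -1.39 (SE 0.31, adjusted p 0.000464). In ST2+ Tregs alone the VAT difference was -2.09 (SE 0.45, adjusted p 0.000468), while in ST2- Tregs alone it was -0.68 (SE 0.42, adjusted p 0.367). Taken alone, the populations had 2 and 1 of the 6 genes called in VAT, where 11.2% (ST2+) and 5.78% (ST2-) of all genes were called. Colon had 85.1 ± 33.4 CPM (SD, n = 8) and a log2 fold change of -0.90 (SE 0.33, adjusted p 0.0384). That call did not survive leaving out any 1 mouse (adjusted p 0.0547 to 0.102) or including all 70 libraries (0.0517), and neither population alone passed (adjusted p 0.259 and 0.204). The colon ST2+ libraries also held the most myeloid transcripts, as given above, and the part of these in the colon values was not tested. Blood (log2 fold change -0.69, adjusted p 0.149) and lungs (-0.67, adjusted p 0.127) did not pass, although with voom and in fits of only the compared groups they were DEGs (adjusted p 0.000685 to 0.0103).

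Nt5e was lower in VAT than in spleen. Its mean in VAT was 231 ± 125 CPM (SD, n = 10). It was 499.6 ± 64.6 CPM in spleen, 360 ± 66.7 in blood, 523 ± 76.5 in lungs, 564 ± 186 in colon (SD, n = 8) and 469 ± 112 in skin. Against spleen it fell by 1.19 in VAT on the log2 scale, or 2.29-fold (SE 0.17, adjusted p 9.45e-08). The same call was made in ST2+ (-1.59, SE 0.24) and ST2- Tregs (-0.80, SE 0.23, adjusted p 0.0257) alone. In VAT 2 of the 6 genes were DEGs against spleen, where 15.9% of all genes were. In blood 0 of 6 were, where 7.79% were (edgeR, and 3325 of all genes had an unadjusted p below 0.05), and DESeq2 called 0 as well. The voom fit called 1, P2rx7, and 1370 of all genes, beside 1026 in edgeR. Nt5e came nearest in blood, at -0.47 (SE 0.17, adjusted p 0.0635). In skin and lungs its log2 fold changes were small, at -0.10 (SE 0.16) and 0.07 (SE 0.16).

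The adenosine receptor gene Adora2a was higher in skin and lungs than in spleen. Skin libraries ran from 34.2 to 89.8 CPM with a median of 58.6, and spleen CD44hi libraries from 11.2 to 45.3 CPM with a median of 20.8. The log2 fold change in skin was 1.40, or 2.64-fold (SE 0.36, adjusted p 0.00109). In lungs, where libraries ran from 20.4 to 72.6 CPM, it was 1.06 or 2.09-fold (SE 0.36, adjusted p 0.0356). The lung call was lost without mouse 1, 3 or 5 (adjusted p 0.114 to 0.122) and with all 70 libraries (0.0702), and neither population alone passed in lungs (0.192 and 0.330). In skin ST2- Tregs alone passed (1.73, adjusted p 0.00736) and ST2+ alone did not (1.07, adjusted p 0.0981). Adora2a was the only DEG of the 6 genes in lungs, where 10.2% of all genes were called, and P2rx7 the only one in colon, where 19.5% were. In skin, Adora2a and P2rx7 were DEGs, where 41.1% of all genes were. In VAT the log2 fold change of Adora2a was 0.21 (SE 0.36, adjusted p 0.760), and in colon it was 0.88 (SE 0.38, adjusted p 0.0895). The colon difference was a DEG with voom (adjusted p 0.0428) and in a fit of the compared groups only (0.00839). The raw counts of Adora2a reached at most 162 per library, so these ratios are imprecise.

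**Figure D3:**
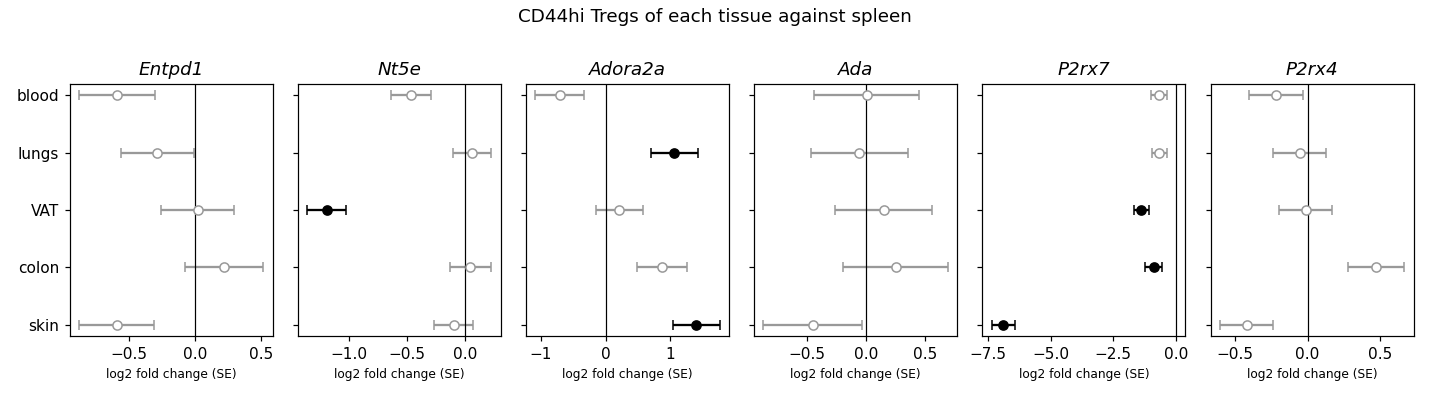
Log2 fold change of CD44hi Tregs of 5 tissues (y axis) against spleen (x axis, own scale in each panel), mean of ST2+ and ST2-, with bars of 1 SE. Filled points are DEGs: Nt5e in VAT, Adora2a in lungs and skin, and P2rx7 in VAT, colon and skin.

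Entpd1 was compared with spleen in each population too. Its skin log2 fold change was -0.60 over both populations (SE 0.28, adjusted p 0.0702). In ST2+ Tregs alone it fell by 1.30 (SE 0.40, adjusted p 0.0101), and in ST2- Tregs alone it was 0.11 (SE 0.39, adjusted p 0.857). Whether these differ was tested only as part of the interaction over all tissues, which Entpd1 did not pass (adjusted p 0.383). With each mouse as a replicate block, the pooled skin difference was a DEG (log2 fold change -0.64, adjusted p 0.0421), as it was with voom (-0.68, adjusted p 0.0152). In skin, 3 of the 6 genes were DEGs in ST2+ (Entpd1, P2rx7 and P2rx4) and 2 in ST2- Tregs (Adora2a and P2rx7), where 29.1% and 30.9% of all genes were. Ada was within 0.45 on the log2 scale of spleen in every tissue (adjusted p 0.385 to 1), with SEs of 0.41 to 0.44, so changes of about that size were not detectable here. P2rx4 had its highest mean in colon, at 139 ± 33.8 CPM over 8 libraries, and it was at 104 ± 31.2 CPM over 10 in spleen, a log2 fold change of 0.47 (SE 0.19, adjusted p 0.0677).

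CD44hi and CD44lo Tregs were compared in ST2- cells of spleen and lungs. In spleen, Nt5e was at 533, 553, 585, 477 and 528 CPM in CD44hi Tregs of mice 1 to 5 and at 243, 211, 150, 136 and 236 CPM in CD44lo Tregs. The groups did not overlap. Here and below, a lack of overlap only describes the libraries, and no share of all genes without overlap is set beside it. Nt5e rose by 1.45 on the log2 scale, or 2.74-fold (SE 0.24, adjusted p 8.26e-06). It was the 1 DEG of the 6 genes in spleen, where 5.03% of all genes were called. In lungs the CD44hi libraries were at 551, 583, 521, 489 and 635 CPM and the CD44lo libraries at 409, 359, 349, 284 and 422 CPM. These did not overlap either, but the log2 fold change of 0.61 (SE 0.23) did not pass (adjusted p 0.124), although it did with voom (0.0116) and in a fit of the compared groups only (0.0070). In lungs 0 of 6 genes were DEGs (edgeR), where 5.53% of all genes were and 2423 had an unadjusted p below 0.05. DESeq2 also called 0 of 6 in lungs while voom called 2, Nt5e and Adora2a. Of all genes voom called 1223 in lungs, beside 729 in edgeR.

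Adora2a was low in CD44lo Tregs. In spleen these libraries were at 12.5, 6.35, 6.20, 0 and 1.94 CPM and the ST2- CD44hi libraries at 13.8, 18.4, 22.6, 11.2 and 16.5 CPM in mice 1 to 5, higher in all 5 mice. The log2 fold change was 1.58 (SE 0.54, adjusted p 0.0740) in spleen and 1.32 (SE 0.52, adjusted p 0.135) in lungs. With each mouse as a replicate block both were DEGs (adjusted p 0.00925 in spleen and 0.0430 in lungs), as they were with voom (0.00133 and 0.0177). Of all genes voom called 1523 in spleen, beside 663 in edgeR. In spleen DESeq2 (0.0205) and the fit without mouse 1 (0.0309) made the call as well. Ada had its higher values in CD44lo Tregs. Its CD44lo libraries were at 66.0, 63.9, 58.9, 39.3 and 62.1 CPM in spleen against 28.4, 24.3, 25.7, 41.9 and 19.3 CPM in CD44hi Tregs, lower in 4 of 5 mice. In lungs they were at 53.7, 29.1, 83.9, 32.0 and 61.4 CPM against 33.0, 37.2, 27.2, 10.4 and 22.9 CPM, again lower in 4 of 5 mice. The log2 fold changes of -1.06 (SE 0.58, adjusted p 0.405) and -0.99 (SE 0.58, adjusted p 0.382) did not pass. In spleen Ada was a DEG with voom (adjusted p 0.0141) and in a fit of the compared groups only (0.00859). ST2+ CD44hi libraries of Ada, from 10.3 to 25.8 CPM in spleen and 7.62 to 25.8 CPM in lungs, lay below all CD44lo libraries of the same tissue. ST2+ CD44hi and CD44lo Tregs were not compared in a test, and no share of all genes is set beside this. Nt5e and Adora2a did not overlap between these groups either, in both tissues, with the higher values in ST2+ CD44hi Tregs.

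The mean of the spleen and lung differences was tested after the values of each tissue had been seen. In it 2 of the 6 genes were DEGs, where 9.59% of all genes were. Nt5e rose by 1.03 on the log2 scale (SE 0.17, adjusted p 2.89e-06) and Adora2a by 1.45, or 2.73-fold (SE 0.37, adjusted p 0.00421). Ada had a log2 fold change of -1.03 (SE 0.41, adjusted p 0.0995), which passed with DESeq2 (0.0448), with voom (0.00270) and in a fit of the compared groups only (0.00188). Of all genes voom called 1850 in this mean, beside 1263 in edgeR. Entpd1 had 0.72 (SE 0.28, adjusted p 0.0865), which passed with voom (0.0070), in a fit of the compared groups only (0.000458) and without mouse 1 (0.0484). In spleen its CD44hi libraries, at 80.8 to 123 CPM, did not overlap the CD44lo libraries, at 48.0 to 75.7 CPM. The spleen difference of Entpd1 did not pass in edgeR (log2 fold change 0.77, SE 0.39, adjusted p 0.348). P2rx7 and P2rx4 did not pass, with mean log2 fold changes of 0.38 (SE 0.30, 95% interval -0.21 to 0.97) and -0.19 (SE 0.18, 95% interval -0.55 to 0.17).

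**Figure D4:**
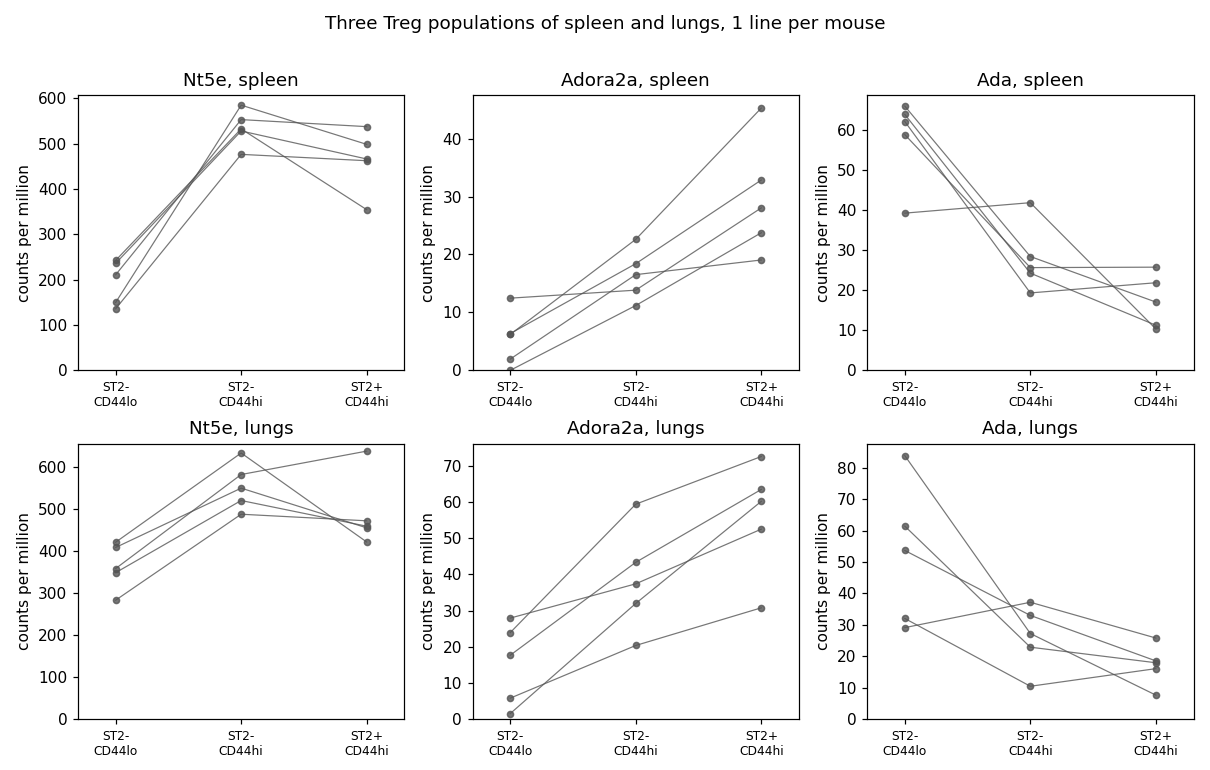
CPM (y axis, starting at 0) of Nt5e, Adora2a and Ada in the CD44lo, ST2- CD44hi and ST2+ CD44hi Tregs (x axis) of spleen and lungs, with 1 line per mouse. Nt5e and Adora2a lie lowest and Ada mostly highest in the CD44lo libraries.

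CD44lo Tregs themselves differed between the organs in Nt5e. Lung libraries were at 284 to 422 CPM and spleen libraries at 136 to 243 CPM, with no overlap. The log2 fold change of lungs against spleen was 0.90, or 1.87-fold (SE 0.24, adjusted p 0.0144, edgeR). This was 1 DEG of the 6 genes, where 3.16% of all genes were called, and it was lost without mouse 2, 4 or 5 (adjusted p 0.0618 to 0.0938). P2rx7 was at 35.7, 74.8, 72.6, 87.7 and 84.6 CPM in lungs and at 114, 127, 144, 124 and 156 CPM in spleen of mice 1 to 5. These libraries did not overlap, which is a description only, and the log2 fold change of -0.91 (SE 0.43) did not pass (adjusted p 0.300). It did with voom (0.0120) and in a fit of the compared groups only (0.0195). Adora2a had a log2 fold change of 1.49 (SE 0.54, adjusted p 0.128), which was a DEG with each mouse as a replicate block (adjusted p 0.0445) and with DESeq2 (0.0432).

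Of 50 other genes of ATP release, nucleotide breakdown, NAD handling, adenosine turnover and nucleotide receptors, 36 passed the filter on low counts. Between ST2+ and ST2- CD44hi Tregs 0 of the 36 were DEGs in spleen, lungs, colon or skin, 1 fell in blood (2.78%, beside 4.04% of all genes) and 3 fell in VAT (8.33%, beside 3.12%). Slc28a2, a nucleoside importer, was at 102 ± 19.2 CPM in ST2+ (SD, n = 4) and 212 ± 57.2 CPM in ST2- Tregs of blood (SD, n = 5), a log2 fold change of -1.05 (SE 0.23, adjusted p 0.00209). In VAT the DEGs were Art2b (-2.63, SE 0.44, adjusted p 6.31e-05), Adk, the adenosine kinase that clears adenosine inside cells (-0.81, SE 0.24, adjusted p 0.0373), and Slc17a9, a vesicular ATP transporter (-0.86, SE 0.26, adjusted p 0.0490). The median log2 fold change of the 36 in VAT was -0.08, beside -0.01 over all tested genes. Averaged over tissues, 3 of 36 were DEGs (8.33%, beside 4.21% of all genes). Dpp4, the peptidase CD26, fell by 0.80 (SE 0.19, adjusted p 0.00212), and P2ry14, a receptor for UDP-sugars, rose by 1.40 (SE 0.33, adjusted p 0.00271). The nucleoside and amine transporter Slc29a4 also rose, by 1.75 (SE 0.58, adjusted p 0.0493), at a low level of at most 30.3 CPM in any group mean. Adk was the 1 of 36 with an interaction of tissue and ST2 (adjusted p 0.0436), or 2.78% beside 1.43% of all genes.

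Over the tissues, 26 of the 36 differed (72.2%), a share near that of all genes. Art2b, which makes the enzyme that can gate P2X7 through NAD, was at 0 counts in all 10 skin libraries. This allows up to 0.163 CPM if 3 counts over the group are taken as the limit, which puts it at least 1570-fold lower than the pooled 255.5 CPM of spleen. Art2b was also lower than in spleen in VAT (-2.76, SE 0.30, adjusted p 1.74e-10), colon (-1.63, SE 0.31, adjusted p 7.00e-05) and lungs (-1.42, SE 0.28, adjusted p 0.000147). Reads of Art2b may be shared with its close copy Art2a-ps, so its level is uncertain. In skin, 9 of the 36 rose and 13 fell (61.1%, beside 41.1% of all genes). Among those that fell were Dpp4 (-3.48, SE 0.34, adjusted p 3.52e-13) and, chosen after its values were seen, Cd38 (-2.79, SE 0.31, adjusted p 4.15e-11), which breaks down NAD. In blood 5 rose and 5 fell (27.8% of the 36, beside 7.79% of all genes), and in lungs 3 rose and 2 fell (13.9%, beside 10.2%). Red cell and platelet transcripts had their highest group medians in blood, as given above, and their part in the blood values was not tested. In VAT 4 rose and 3 fell (19.4%, beside 15.9%), and in colon 10 rose and 3 fell (36.1%, beside 19.5%). P2ry10, a receptor for lysophosphatidylserine, was higher than in spleen in all 5 tissues, from 1.51 (SE 0.12) in blood to 2.08 (SE 0.12) in skin, though reads may be shared with P2ry10b. P2ry6, a receptor for UDP, was among those that rose in colon. Its mean was 15.0 ± 7.33 CPM in colon ST2+ (SD, n = 3) and 0 to 11.5 CPM in the libraries of all other groups. The colon ST2+ libraries are those with the most myeloid transcripts, and they held fibroblast and epithelial transcripts too. The part of these in the level of P2ry6, and in the other genes that rose or fell in colon, was not tested.

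**Figure D5:**
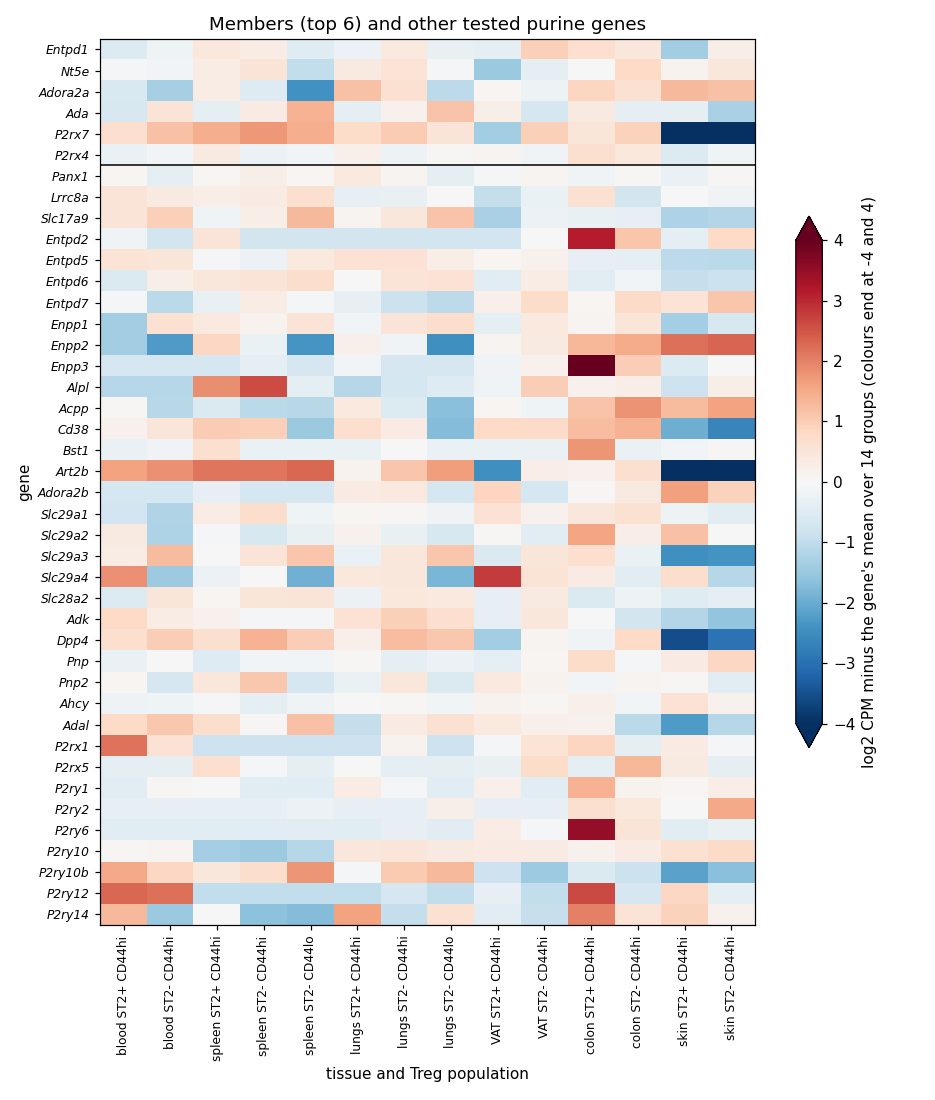
Mean log2 CPM of each group (columns) minus the gene's mean over the 14 groups, for the 6 genes (above the line) and the 36 other purine genes tested (below). Red is higher and blue is lower. P2rx7, Art2b and Dpp4 are blue in both skin groups.

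In ST2- CD44hi against CD44lo Tregs, Cd38 was the gene of the 36 with the smallest adjusted p in either tissue. It rose by 2.44 in spleen (SE 0.43, adjusted p 3.41e-05) and by 2.08 in lungs (SE 0.43, adjusted p 0.000511). Slc17a9 fell by 1.08 in spleen (SE 0.25, adjusted p 0.00306). Its libraries were at 226 to 286 CPM in CD44lo and at 90.4 to 143 CPM in ST2- CD44hi Tregs. In all, 3 of 36 rose and 1 fell in spleen (11.1%, beside 5.03% of all genes), and 2 rose in lungs (5.56%, beside 5.53%), one of them Enpp2, the lysophospholipase autotaxin, which was at 0 in all 5 lung CD44lo libraries and at 0 to 18.3 CPM in CD44hi Tregs. Between the CD44lo Tregs of lungs and spleen, P2ry10 (1.49, SE 0.16, adjusted p 3.14e-10) and Adk (0.83, SE 0.23, adjusted p 0.0285) were higher in lungs (5.56% of the 36, beside 3.16% of all genes).

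The tested genes whose 14 group means of log2 CPM ran most like each of the 6 were listed by Pearson's r, which describes groups that share animals and tissues. Closest to P2rx7 were Ankmy2 (r 0.99), Phf11a (0.98) and Izumo1r (0.98), all with their lowest mean in skin ST2+ Tregs. Izumo1r, which encodes folate receptor 4 of Tregs, went from 22.3 CPM there to 712 CPM in spleen ST2- Tregs. The mean log2 CPM of P2rx7 was 0.44 in skin ST2+ and 1.07 in skin ST2- Tregs. In the other groups it was 4.22 to 7.33. A gene that is low in skin can therefore reach a high r with P2rx7 largely through the skin groups. Without skin, the r of P2rx7 and P2rx4 went from 0.42 to -0.19. For the genes listed here, r without skin is not given. Closest to Adora2a were Lamc1 (0.96), Dst (0.94) and the costimulatory receptor gene Icos (0.93), all lowest in spleen CD44lo Tregs. Closest to Nt5e were March3 (0.88), Klhl5 (0.86) and Ldlrad4 (0.83), and closest to Ada were Mob3b (0.91), Adcy6 (0.88) and Trub1 (0.87). For Entpd1 they were Smpdl3b (0.85), Slc9b2 (0.84) and Nfia (0.83), and for P2rx4 they were Pdxdc1 (0.87), Chrac1 (0.86) and Tmem216 (0.85).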

How the data were processed

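Tregs were sorted as live CD4+ YFP+ leukocytes with other lineages gated out, and cDNA was made with SMART-Seq v4 and NexteraXT. The authors aligned reads of 58 bases with STAR and deposited raw counts per gene made with HTSeq 0.4.1 (CASAVA 1.8.2 and HTSeq as in the submitters' processing notes). For the counting mode and strand setting, the sources used here give nothing. All libraries come from 5 mice. The main fit takes libraries as independent, so its p-values measure the spread of libraries within groups. In the tissue contrasts a mouse enters with both its ST2+ and its ST2- library. Counts were taken as deposited, libraries of 1000000 counts or fewer (3 of 70) were left out, and protein-coding genes (GENCODE M21) with 1 CPM in 10% of kept libraries were tested with the quasi-likelihood test of edgeR 4.0.16 (R 4.3.3), with 14 groups and TMM factors. Log2 CPM used a prior count of 2, and 95% intervals are normal intervals from the SE. Alternatives used DESeq2 1.42.0, limma 3.58.1 (voom with quality weights), other filters, scaling and libraries, sorted cell number as a covariate, and a replicate block.

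The replicate number marks the animal, so it pairs libraries. Deviations from group means correlated at a mean r of 0.0834 over 27 pairs of the same mouse (lowest 0.00628) and -0.0200 over 108 pairs of different mice (9207 genes). The main fit has no block, and the blocked value is given where it changed a call.

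The members and gene lists were chosen with earlier results of these data known. Of the other purine genes, those named came mostly from the up to 3 DEGs with the smallest adjusted p per comparison. Not all of these are named, such as Slc17a9 in blood, Adk in lungs and Dpp4 in VAT against spleen. Some fitted folds were left out where a group was near 0. The 3 genes most alike in group means were named for each member. Some markers used in the sort or in the identity checks are not reported here. Python 3.11.15, pandas 2.3.3, scipy 1.17.1 and matplotlib 3.10.9 were used for summaries, exact intervals and plots.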

Additional observations from a re-analysis of the deposited data

Results flagged for a closer look

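In 5 of 78 groups of 4 or 5 libraries 1 library lay far from the others on the log2 CPM scale, where chance flags about 1 in 20 groups, or 3.9 of these. The number given for each is its gap to the nearest library over the range of the group. Entpd1 in skin ST2+ Tregs was at 2.56 CPM in mouse 1 and 33.8 to 82.5 CPM in the others (0.723). Nt5e in lung ST2+ Tregs was at 639 CPM in mouse 2 and 422 to 473 CPM in the others (0.727). Ada was at 39.3 CPM in spleen CD44lo Tregs of mouse 4 and 58.9 to 66.0 CPM in the others (0.779). In VAT ST2- Tregs Ada was at 0 in mouse 2 and at 17.4 to 31.5 CPM in the others (0.839). P2rx7 in lung CD44lo Tregs was at 35.7 CPM in mouse 1 and 72.6 to 87.7 CPM in the others (0.789).

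Libraries left out for low depth also held counts of these genes above the limit of 3. The blood ST2+ library of mouse 1, with 488666 counts in all, held 224 of Nt5e, 12 of P2rx7 and 111 of P2rx4. The colon ST2+ library of mouse 5, with 62333 counts, held 28 of Nt5e and 6 of P2rx7.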

How the results depend on the processing

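Of 1704 gene values under alternatives, 1575 kept their direction and side of the threshold, 40 lost a call, 37 gained one and 52 changed sign, 0 of them called in either fit. Counts of the 6 genes called moved as follows, with causes not tested. ST2+ against ST2- in 6 tissues gave 2 calls, 0 in separate fits of the compared groups and 0 to 3 with 1 mouse left out. Averaged over tissues there was 1 call, and 0 to 1 with 1 mouse left out. The interaction gave 0, and 1 with voom, which called 873 of all genes there, beside 189 in the main fit. The tissue test gave 5, and 3 in ST2- libraries alone. Against spleen there were 6 calls, 10 with voom and 3 in ST2- libraries alone. Of all genes, voom called 1370 in blood and 2198 in lungs against spleen, beside 1026 and 1341 in the main fit. CD44hi against CD44lo gave 1 call, 2 with DESeq2, 6 with voom, 4 in fits of the compared groups, and 1 to 2 with 1 mouse left out. Voom also called more of all genes here, 1523 in spleen and 1223 in lungs, beside 663 and 729 in the main fit. CD44lo Tregs of lungs against spleen gave 1, 2 with DESeq2, voom or only the groups compared, and 0 to 1 with 1 mouse left out. There voom called 949 of all genes, beside 416 in the main fit. The counts from DESeq2 and from fits of the compared groups are given without the number of all genes called there.

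With the mouse as a replicate block, the calls became 3 in CD44hi against CD44lo, 2 in CD44lo of lungs against spleen and 7 against spleen. The number of all genes called under the block is not given, so these gains cannot be told apart from a general rise in calls. The counts of the other comparisons did not move under the block (2, 1, 0 and 5). The subset fits by population, the average without skin and the mean of spleen and lungs were chosen after seeing the data. Over all genes, DEG counts between ST2+ and ST2- ranged over the alternatives from 115 to 899 in blood (532 as reported), 16 to 225 in spleen (42), 38 to 350 in lungs (103), 90 to 605 in VAT (411), 2 to 295 in colon (9) and 5 to 104 in skin (28). The interaction ranged from 40 to 873 (189). Against spleen the ranges were 604 to 1370 in blood (1026), 900 to 2198 in lungs (1341) and 1384 to 3795 in colon (2565). For CD44hi against CD44lo they were 457 to 1523 in spleen (663) and 491 to 1223 in lungs (729), and for the CD44lo Tregs of lungs against spleen 238 to 949 (416). Size factors from medians of ratios moved the median of all genes by at most 0.03 on the log2 scale. Low counts limit Adora2a and Ada in all groups and P2rx7 in skin.

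The log2 fold changes that changed sign were of uncalled genes, with causes not tested. For ST2+ against ST2-, with voom, the values were -0.12 for Nt5e in blood and 0.11 for P2rx4 in blood. For ST2+ against ST2-, with all 70 libraries, the values were 0.15 for P2rx4 in blood and -0.084 for Entpd1 in colon. For ST2+ against ST2-, with sorted cell number as a covariate, the value was -0.12 for P2rx4 in VAT. Against spleen, with voom, the values were -0.064 for Ada in blood and 0.041 for P2rx4 in VAT. Against spleen, with all 70 libraries, the value was -0.14 for Ada in blood. Against spleen, in a fit of the compared groups, the value was -0.0060 for Ada in blood. Against spleen, with sorted cell number as a covariate, the values were -0.12 for Ada in blood and 0.099 for P2rx4 in VAT. Against spleen, in ST2+ libraries alone, the values were -0.28 for Ada in blood, -0.67 for Entpd1 in VAT, -0.17 for Adora2a in VAT, -0.22 for Nt5e in colon and 0.19 for Ada in skin. Against spleen, in ST2- libraries alone, the values were 0.16 for P2rx4 in blood, 0.10 for Entpd1 in lungs, 0.018 for P2rx4 in lungs, -0.36 for Ada in VAT, 0.23 for P2rx4 in VAT, -0.33 for Ada in colon, 0.11 for Entpd1 in skin and 0.040 for P2rx4 in skin. With 1 mouse left out, ST2+ against ST2- ranged from -0.65 to 0.056 for Entpd1 in blood, -0.093 to 0.13 for Nt5e in blood, -0.35 to 0.051 for P2rx4 in blood, -0.46 to 0.091 for P2rx7 in lungs, -0.10 to 0.23 for Adora2a in VAT, -0.0026 to 0.68 for Ada in VAT, -0.16 to 0.36 for P2rx4 in VAT, -0.17 to 1.03 for Ada in colon, -0.082 to 0.36 for P2rx4 in colon, -0.012 to 0.28 for Adora2a in skin, -3.63 to 0.50 for P2rx7 in skin and -0.36 to 0.022 for Ada averaged over tissues. Against spleen the ranges with 1 mouse left out were -0.093 to 0.086 for Ada in blood, -0.31 to 0.12 for Ada in lungs, -0.13 to 0.056 for P2rx4 in lungs, -0.095 to 0.20 for Entpd1 in VAT, -0.086 to 0.40 for Adora2a in VAT, -0.062 to 0.28 for Ada in VAT, -0.12 to 0.045 for P2rx4 in VAT and -0.13 to 0.24 for Nt5e in colon. In CD44lo Tregs of lungs against spleen the range was -0.38 to 0.028 for Ada.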
